A study of Homo sapiens with 9 samples.

Results

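In MP41 cells, a human uveal melanoma line, 205 genes differed between the miR-16 and the control mimic only at the last time point, where they were lower with miR-16. They were selected on their own measured values, among 11137 genes with a log2 normalised read count of at least 7 in the 0 h library, out of 14839 genes in the table. A gene was kept when the miR-16 value lay within 0.25 of the miR-CTR value at 6, 12 and 24 h and at least 0.5 below it at 48 h. On the linear scale, −0.5 at 48 h means 70.7% of the control level or less. Cells were transfected at 66 nM with a synthetic mimic, miR-16 or the control miR-CTR, and were collected 6, 12, 24 and 48 h later. The 0 h library carries the miR-CTR label, marks the start of the course and serves both mimics. All libraries come from 1 cell line, and each of the 9 conditions has 1 library. No test between conditions was therefore possible, and the spread between cultures is unknown. The errors given are standard errors from read counts alone. The libraries held between 20270000 and 27350000 recovered reads, and the median 48 h-only gene had between 545 and 1088 reads per library. All 10 melanocyte markers checked, such as TYRP1 at 17.88 and PMEL at 16.62, stood at 11.13 or more at 0 h. Of 9 leukocyte markers 1 was in the table, at 5.86 or less in every library, and of 8 fibroblast markers 5 were, at 8.86 or less. The 6 endothelial and 7 epithelial markers looked for had no row in the table used here.

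A microRNA guides Argonaute proteins to messenger RNAs, mostly through pairing of its seed with the 3′UTR, and the paired messenger RNA is then translated less and degraded sooner. miR-16 is known for targeting regulators of the G1 phase, such as D-type cyclins. Genes that carry out S phase and mitosis are switched on in later phases of the cycle by E2F factors, and by MYB and FOXM1 complexes at promoters with a cell cycle homology region (CHR). The DREAM complex holds both kinds of gene down in resting cells.

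The sequences that bear on this group are the seed of the mimic, the few 3′UTR sites that pair with it, and the promoter motifs of the cell cycle genes. The mature miR-16 sequence from RefSeq has its seed, bases 2 to 8, in capitals. The next 5 sequences are 30-base stretches of the 3′UTR around a match to the seed, with the match in capitals, written as DNA in the direction of the transcript (GRCh38, GENCODE version 29). GINS2 has the lowest 48 h difference among the genes with a match. AXIN2, MCM8 and RACGAP1 have more than 1 match, and PDK1 has an 8-base match.
hsa-miR-16-5p: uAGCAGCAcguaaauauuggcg
GINS2 3′UTR, chr16:85677378-85677407, reverse strand: gtcactttcagTGCTGCTcttgatggattt
AXIN2 3′UTR, chr17:65529545-65529574, reverse strand: gtttatggataTGCTGCTttaaacttggaa
MCM8 3′UTR, chr20:5995442-5995471, forward strand: ctggaagaaagTGCTGCTgcctccctgccc
RACGAP1 3′UTR, chr12:49989926-49989955, reverse strand: ttaaagccaaaTGCTGCTcatagaatgatc
PDK1 3′UTR, chr2:172606448-172606477, forward strand: caagtctctttTGCTGCTAggaggcagaca

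The promoter stretches are shown because the members on the mitosis and on the DNA replication list differ in them. The capitals mark the letters TTTGAA or their reverse complement TTCAAA, the CHR element, in 4 mitotic genes, and then an E2F motif in 4 genes (RefSeq, GRCh38.p14, in the direction of transcription). Of the latter, GINS2, RFC3 and PCNA are on the DNA replication list. CDCA5 is on the mitosis list, so it goes against the difference between the lists. The KIF15 stretch also holds an E2F motif, GCGCCAAA, which is left in lower case.
KIF15, chr3:44761747-44761776, forward strand: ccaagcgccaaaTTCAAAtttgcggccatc
KIFC1, chr6:33391815-33391844, forward strand: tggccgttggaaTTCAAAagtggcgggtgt
PLK1, chr16:23678848-23678877, forward strand: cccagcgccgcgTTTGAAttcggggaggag
BUB1B, chr15:40161034-40161063, forward strand: gggaccgttaaaTTTGAAacttggcggcta
GINS2, chr16:85688967-85688996, reverse strand: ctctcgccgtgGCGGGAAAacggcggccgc
CDCA5, chr11:65084067-65084096, reverse strand: cttccgcttccTTTCCCGCagggcgggtaa
RFC3, chr13:33818083-33818112, forward strand: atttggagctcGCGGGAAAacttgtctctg
PCNA, chr20:5126663-5126692, reverse strand: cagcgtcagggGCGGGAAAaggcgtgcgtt

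By the rule, the differences were small until 24 h and at or below −0.5 at 48 h. The median difference of the 205 genes was −0.01 after 6 h, −0.06 after 12 h and −0.15 after 24 h. It was −0.63 at 48 h, where the differences ran from −1.18 to −0.5. At 24 h, 173 of the 205 lay below 0, while all 11137 genes had a median of −0.01 and were not counted in this way. The rule used the 24 h values and chose genes that were low at 48 h, so this count is a description. The median of all 11137 genes was 0.01, 0, −0.01 and −0.02 at the same times. The counting standard error of the 48 h difference had a median of 0.0761 and reached 0.226 for RIBC2. At 48 h, 884 of the 11137 genes (7.94%) were at or below −0.5, so the 48 h-only genes made up 23.2% of them. Of the 884, 621 were already below −0.25 at 24 h.

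The 24 h band set much of the membership. AFG3L1P, CDC20 and DCLRE1B lay just inside the 48 h threshold at −0.5, and AP2S1, BUD13 and FKBPL just outside it at −0.49. ARHGAP11B, ATF3 and ECT2 met every other condition but stood at −0.26 at 24 h, 0.01 past the band. In all, 249 genes missed the group by their 24 h value alone, and 47 of them lay at −0.3 or closer to 0 at that time. Conversely, 19 of the 205 genes stood at the lower edge of the band, −0.25, at 24 h. Applied to the other times, the same rule kept 5 genes that were lower only at 6 h, 1 only at 12 h and 12 only at 24 h. At those times 72, 103 and 421 of the 11137 genes were at or below −0.5, beside 884 at 48 h. For an earlier time the rule also asks for a return into the band by 48 h. A lasting difference cannot meet it, so these counts are not on a par with the 205. In the opposite direction, 100 genes were higher with miR-16 only at 48 h, while 6.1% of all genes were at or above 0.5 then.

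E2F8, an atypical E2F that represses E2F targets, had the lowest 48 h difference (ENSG00000129173.12, chromosome 11, 19224063 to 19241620, reverse strand). Its log2 normalised read count was 8.63 at 0 h. With miR-CTR it stood at 8.73, 8.39, 7.95 and 7.67 at 6, 12, 24 and 48 h. With miR-16 it stood at 8.89, 8.24, 7.91 and 6.49. E2F8 thus declined with both mimics from 6 to 24 h, and at 48 h the difference was −1.18 (counting SE 0.181), or 44.1% of the control level.

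KIF15, a mitotic kinesin that helps keep the spindle bipolar, showed another course (ENSG00000163808.16, chromosome 3, 44761717 to 44873376). It was nearly level with miR-CTR, from 9.26 at 0 h to 9.35, 9.31, 9.33 and 9.45. With miR-16 it was at 9.38, 9.33, 9.11 and 8.34 at the same times. The 24 h miR-16 value was already just below the control values, and the 48 h value was far below them. Its 48 h difference was −1.11 (counting SE 0.0964). GINS2 encodes a subunit of the GINS complex, which joins the replicative helicase (ENSG00000131153.8, chromosome 16, 85676198 to 85690073, reverse strand). It stood at 9.65 at 0 h and declined alike with both mimics, from 9.65 to 9.35 and 9.08 with miR-CTR and from 9.62 to 9.39 and 9.07 with miR-16 at 6, 12 and 24 h. At 48 h it was 9.25 with miR-CTR and 8.16 with miR-16, a difference of −1.09 (counting SE 0.103). The control library had thus moved back up while the miR-16 library was the lowest of the 9.

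AURKB, the kinase of the chromosomal passenger complex, was higher at 6 h than at 0 h with either mimic (11.06 at 0 h, 11.57 with miR-CTR, 11.55 with miR-16). It then stood at 11.22, 11.02 and 11.2 with miR-CTR and at 11.08, 10.84 and 10.22 with miR-16, a 48 h difference of −0.98 (counting SE 0.0509). CDCA5 (sororin, which protects sister chromatid cohesion) stood at 11.6 at 0 h, at 11.88, 11.41, 10.96 and 10.8 with miR-CTR and at 11.84, 11.19, 10.73 and 9.81 with miR-16. ORC6, a subunit of the origin recognition complex, stood at 8.82 at 0 h, at 9.08, 8.73, 8.59 and 8.59 with miR-CTR and at 9.14, 8.6, 8.34 and 7.6 with miR-16. In all 3 genes the 48 h miR-16 value was below each of the other 8 libraries. Both CDCA5 and ORC6 had a 48 h difference of −0.99, and the other genes among the 12 lowest lay between −0.98 and −0.93. They were FAM72C, GSG2 (haspin, the kinase that marks histone H3 at centromeres), KIFC1 (a minus-end kinesin that focuses spindle poles), CHTF18 (a clamp loader subunit), RAD54L (a motor of homologous recombination) and SPC24 (a kinetochore subunit of the NDC80 complex).

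**Figure D1:**
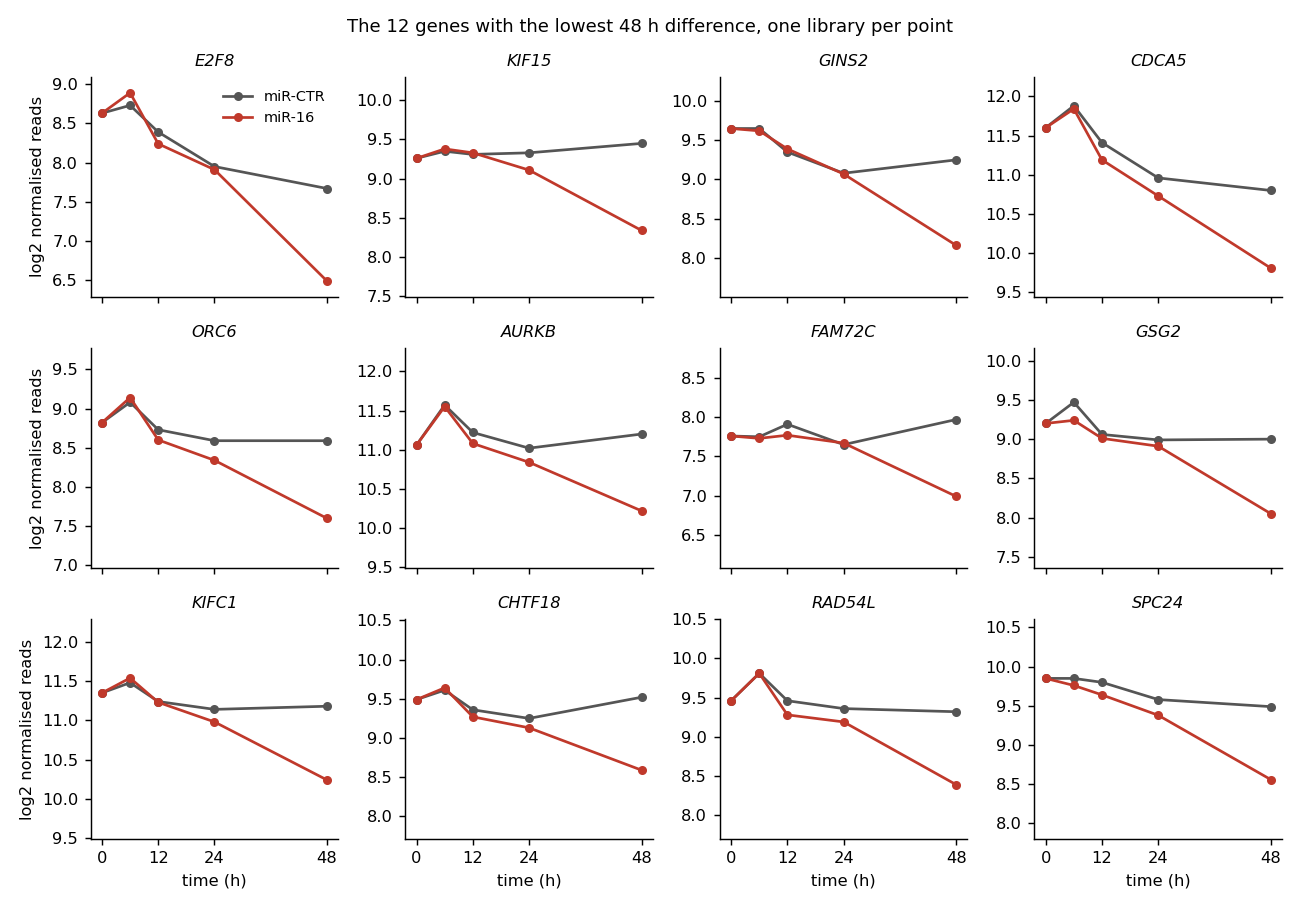
The log2 normalised read count (vertical axis, of the same span in each panel) against hours after transfection for the 12 genes with the lowest 48 h difference, grey for miR-CTR and red for miR-16, with 1 library per point and the 0 h library shared. The curves run together up to 24 h, as the rule requires, and at 48 h miR-16 is lower by 0.93 (CHTF18, RAD54L, SPC24) to 1.18 (E2F8).

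The 10 genes with the highest 0 h values included 3 tubulins. TUBA1C, an alpha-tubulin, was the highest at 14.7, with 14.38 (miR-CTR) and 13.75 (miR-16) at 48 h, a difference of −0.63 (counting SE 0.0156). It was followed by STMN1 (stathmin, which takes up free tubulin) at 13.25, TUBB4B at 13.06, PCNA (the sliding clamp of DNA polymerases) at 12.87, TMPO (a nuclear lamina protein) at 12.86, TUBB4A at 12.81, PTTG1IP at 12.78, GRN (progranulin) at 12.61, TPX2 (a spindle assembly factor that activates Aurora A) at 12.6 and MKI67 (the Ki-67 proliferation antigen) at 12.55. MKI67 stood at 13.21, 12.87, 12.66 and 12.29 with miR-CTR and at 13.34, 12.64, 12.45 and 11.72 with miR-16, so its 48 h difference of −0.57 came on top of a decline in the control. PTTG1IP and GRN differed in another way. PTTG1IP went from 12.78 to 13.35 with miR-CTR and to 12.83 with miR-16 at 48 h, and GRN from 12.61 to 12.95 and 12.37. Across the group the 0 h values ran from 7.01 to 14.7 with a median of 9.86, beside 9.89 for all 11137 genes.

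Genes of DNA replication made up 10.2% of the group, beside 0.575% of the 11137 genes. In bulk RNA, fewer cells in S phase or mitosis and less of these RNAs per cell cannot be told apart. Of the 64 genes of a DNA replication list measured at 7 or more, 42 were at or below −0.5 at 48 h and none at or above 0.5, with a list median of −0.69. The 48 h-only group held 21 of the 42. The whole background, as given above, was 7.94% of genes at or below −0.5 at 48 h, against 65.6% of this list. The members were subunits of the MCM helicase and its relatives (MCM3, MCM4, MCM5, MCM6, MCM8), of GINS with CDC45 (GINS2, GINS4, CDC45), of origin licensing (ORC6, CDT1), of the clamp and its loader (PCNA, RFC2, RFC3), of the polymerases (POLA2, POLE2), of fork protection and chromatin assembly (TIMELESS, WDHD1, CHAF1B), of deoxynucleotide supply (TYMS, TK1) and of primer removal (RNASEH2A). Next to GINS2 and ORC6, the lowest were MCM5 at −0.91 (counting SE 0.039), CDC45 at −0.88 (counting SE 0.0785) and TK1 at −0.83 (counting SE 0.046). MCM5 stood at 12.05 at 0 h, at 12.21, 11.84, 11.82 and 11.92 with miR-CTR, and at 12.23, 11.68, 11.67 and 11.01 with miR-16. The miR-16 library at 48 h was thus the lowest of the 9 for this gene, and the next lowest was miR-16 at 24 h.

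Subunits of the same complex often fell on different sides of the 24 h band. These complexes were put together after the values had been seen. All 6 subunits of the MCM2-7 helicase were lower at 48 h, from −0.91 to −0.6. MCM3 to MCM6 belonged to the 48 h-only group, while MCM7 at −0.26 and MCM2 at −0.32 had left the band at 24 h. Of CDC45 and the 4 GINS subunits all were at or below −0.74 at 48 h, and GINS1 and GINS3 missed the group by 0.01, GINS1 at 24 h and GINS3 at 6 h. Of 8 genes of deoxynucleotide supply, TYMS (thymidylate synthase), TK1, DCK and NUDT1 were members. Both ribonucleotide reductase subunits had left the band by 24 h, RRM1 at −0.26 and RRM2 at −0.31, and were at −0.78 and −0.93 at 48 h. DUT was at −0.26 at 48 h. Not every replication factor reached the 48 h threshold. In the origin licensing set only 3 of 9 genes did (ORC6, CDC6 and CDT1), and the set median was −0.39. ORC1, ORC2, ORC3 and ORC5 lay between −0.48 and −0.25 at 48 h. Among the clamp and clamp loaders 7 of 9 genes reached it, and among the DNA polymerases and primase 6 of 9. RFC1, the large subunit of the canonical clamp loader, had a 48 h difference of 0.12, POLD2 of 0.03 and ORC4 of 0.05. GMNN, which encodes the CDT1 inhibitor geminin, was higher with miR-16 at 24 h (0.78) and stood at 0.33 at 48 h.

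Genes of mitosis and cytokinesis gave the most members of the lists examined, 16.6% of the group beside 0.88% of the 11137 genes. Of 98 genes on this list, 77 (78.6%) were at or below −0.5 at 48 h, none was at or above 0.5, and the list median was −0.74. The 48 h-only group held 34 of the 77. They covered kinases and their partners (AURKA, AURKB, PLK1, CDCA8, TPX2), the spindle checkpoint and the anaphase-promoting complex (MAD2L1, BUB1B, CDC20, UBE2C), kinetochore and centromere proteins (NDC80, SPC24, SKA3, HJURP, CENPU), kinesins (KIF15, KIF2C, KIF4A, KIF18A, KIF22, KIFC1), the machinery of cytokinesis (PRC1, CIT, RACGAP1, ARHGAP11A) and the cyclin and phosphatases that drive entry into mitosis (CCNB2, CDC25B, CDC25C). CDCA2, CDCA3, CDCA5, GTSE1, TROAP, TACC3 and MKI67 completed the list. PLK1, the kinase of centrosome maturation, stood at 11.33 at 0 h, at 11.94, 11.52, 11.14 and 11.05 with miR-CTR and at 11.99, 11.41, 10.9 and 10.26 with miR-16. Its 48 h difference was −0.79 (counting SE 0.0513). CDC20, the activator of the anaphase-promoting complex, stood at 11.83 (6 h) and 10.76 (48 h) with miR-CTR and at 11.96 and 10.26 with miR-16, so the control declined as well.

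The same split within complexes was seen here. All 4 subunits of the chromosomal passenger complex were lower at 48 h, from −0.98 to −0.76. AURKB and CDCA8 were members, and BIRC5 (survivin) and INCENP had left the band at 24 h, at −0.34 and −0.4. All 4 subunits of the NDC80 complex were between −1.02 and −0.77, with NDC80 and SPC24 as members. Among the 7 spindle checkpoint genes 6 were lower and 4 were members, and BUB3 stood at −0.2. In the centromere set all 6 genes were lower and 5 were members. This set is no whole complex and was put together after the values had been seen. All its genes but CENPA are members, so these counts say nothing about centromere genes at large. The members were HJURP, the chaperone that loads CENP-A, at −0.85, CENPP at −0.72, MIS18A at −0.6, CENPC at −0.55 and CENPU at −0.51. CENPA itself stood at −0.37 at 24 h and −0.81 at 48 h. Augmin, which builds branched spindle microtubules, differed, with HAUS8 at −0.74 and HAUS5 at −0.63 and the other 6 subunits between −0.34 and 0.23.

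Across all members, 55 of 205 (26.8%) belonged to the replication or the mitosis list, and 127 belonged to none of the 35 lists examined. Members were 1.84% of all 11137 genes. Of 67 DNA repair genes, 24 (35.8%) were at or below −0.5 at 48 h and 8 (11.9%) were members, which were RAD54L at −0.93, FANCI (Fanconi anaemia pathway) at −0.78, RECQL4 at −0.69, XRCC3 and NEIL3 at −0.64, BRCA1 at −0.55, MDC1 at −0.51 and the mismatch factor MSH6 at −0.5. Of 9 G1 cyclins, CDKs and inhibitors at or below −0.5 at 48 h, only CKS1B (−0.61) was a member, and the other 8 were outside the band at 24 h. Of 8 such E2F, MYB and DREAM regulators, 2 were members, E2F8 and MYBL2 (B-MYB, which drives late cell cycle genes), the latter at −0.77 (counting SE 0.0413). NASP (a histone chaperone, −0.7), HMGB3 (−0.66) and HMGB2 (−0.62) came from 28 genes of HMG proteins and histone chaperones (10.7%), and SLC2A1 (the glucose transporter GLUT1, −0.67), PDK1 (−0.57) and PFKFB4 (−0.51) from 25 glycolysis genes (12%). No member came from 84 cytosolic ribosomal protein genes, 91 respiratory chain genes, 42 proteasome genes, 60 lysosome genes or 27 genes of pigmentation, where the 1.84% over all genes would give few or none.

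**Figure D2:**
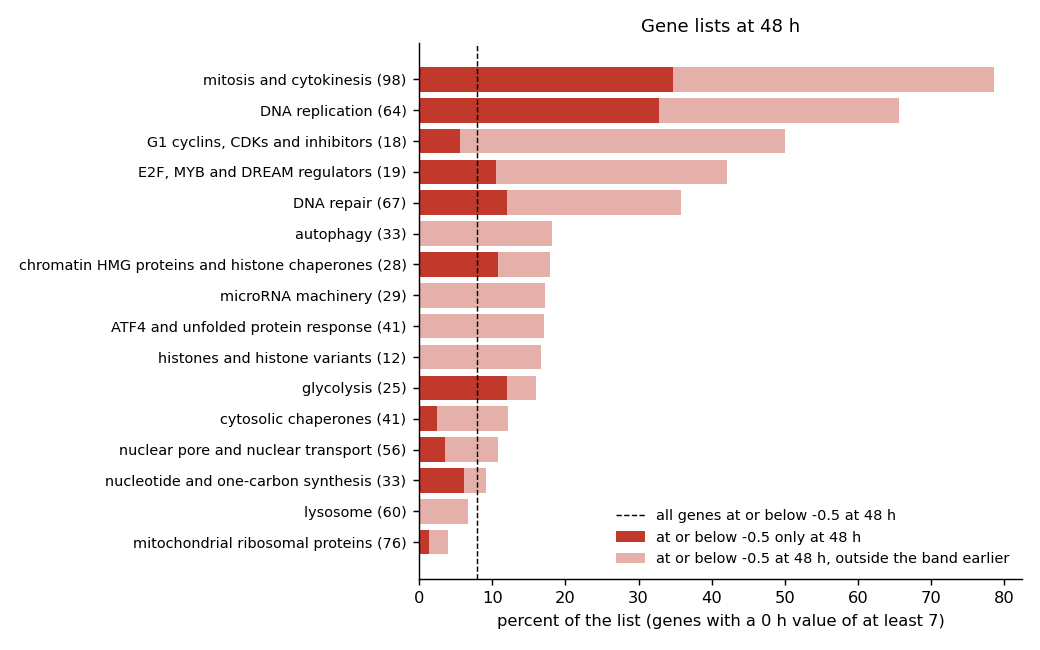
Percent of each of the gene lists with the most lower genes (horizontal axis, list size in parentheses, genes with a 0 h value of at least 7) that was at or below −0.5 at 48 h, dark red for genes within the band at 6, 12 and 24 h and pale for genes outside it at an earlier time. The dashed line is the 7.94% of all genes. The mitosis and DNA replication lists reach 78.6% and 65.6%, and their dark parts are 34.7% and 32.8%.

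Of the 127 members on no list, some are known for roles in the cell cycle, and those named here were picked after their values had been seen. They include TICRR (an initiation factor of replication, −0.79), SPAG5 (astrin, −0.75), the centriole proteins CEP152 (−0.79) and CEP135 (−0.65), UBE2T of the Fanconi pathway (−0.73), KIAA0101 (PAF15, a PCNA partner, −0.73), FBXO5 (EMI1, an inhibitor of the anaphase-promoting complex, −0.69) and its relative FBXO43 (−0.9), and the nuclease partners SLX4 (−0.62) and EME1 (−0.57). TUBG1 (gamma-tubulin) stood at −0.55, and TUBB4A and TUBB4B at −0.58. FAM72B, FAM72C and FAM72D stood at −0.9, −0.98 and −0.75, and FAM72A, outside the group through a 6 h value of −0.38, at −0.76. These 4 genes are near-identical copies among which reads may be split, so their values are uncertain and not independent. GAGE2A and GAGE10 are close copies as well and are uncertain for the same reason. Another 8 members are pseudogenes, whose values may include reads of a related gene (RPL41P5, DDX12P, HMGB1P10, HNRNPA1P12, ZNF876P, UBE2SP1, FTH1P16 and AFG3L1P). The strand setting of the counting is not given in the sources used here, so reads of genes that overlap on opposite strands may not be told apart.

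The median member took a similar course with both mimics up to 24 h, but not every member followed it. With miR-CTR, 170 members were lower at 24 h than at 6 h and 34 were higher, beside 5698 and 5293 of all 11137 genes. With miR-CTR, the median change between neighbouring times was 0.14 from 0 to 6 h, −0.17 from 6 to 12 h, −0.15 from 12 to 24 h and 0 from 24 to 48 h. With miR-16 it was 0.12, −0.2, −0.21 and −0.53. Between 6 and 24 h, 119 of the 205 members (58.0%) declined by at least 0.25 with miR-CTR, beside 20.6% of all 11137 genes, and 141 (68.8%) did so with miR-16, beside 24.1%. From 0 to 6 h, 62 members (30.2%) were at least 0.25 higher with miR-CTR, beside 9.11% of all genes. After 24 h the control was within 0.25 of its 24 h value for 161 members, with 98 lower and 102 higher. With miR-CTR, 7.32% of members were at least 0.25 lower at 48 h than at 24 h, beside 12.9% of all genes. At least 0.25 higher were 16.6% of members, beside 14.6% of all genes, so a steady control was common in the whole table. With miR-16, 198 of the 205 (96.6%) were lower at 48 h than at 24 h, beside 50.1% of all genes. The 48 h miR-16 library was the lowest of the 9 libraries for 187 members (91.2%), beside 25.4% of all genes. The rule used the 48 h library, so both counts are a description.

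The mitotic members had the highest 6 h values relative to 0 h. Their median was 0.31 above 0 h at 6 h with miR-CTR and 0.33 with miR-16, and 24 of 34 (70.6%) were at least 0.25 higher with miR-CTR. By 24 h their medians were −0.17 and −0.31, and by 48 h −0.26 and −0.98. The replication members were at 0.15 and 0.14 at 6 h, at −0.24 and −0.38 at 24 h and at −0.29 and −1.09 at 48 h. All 21 replication members and 32 of the 34 mitotic members were at least 0.5 below their 0 h value with miR-16 at 48 h. With miR-CTR 0 of 21 and 4 of 34 were. For all 11137 genes these shares were 16.5% with miR-16 and 12.5% with miR-CTR.

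**Figure D3:**
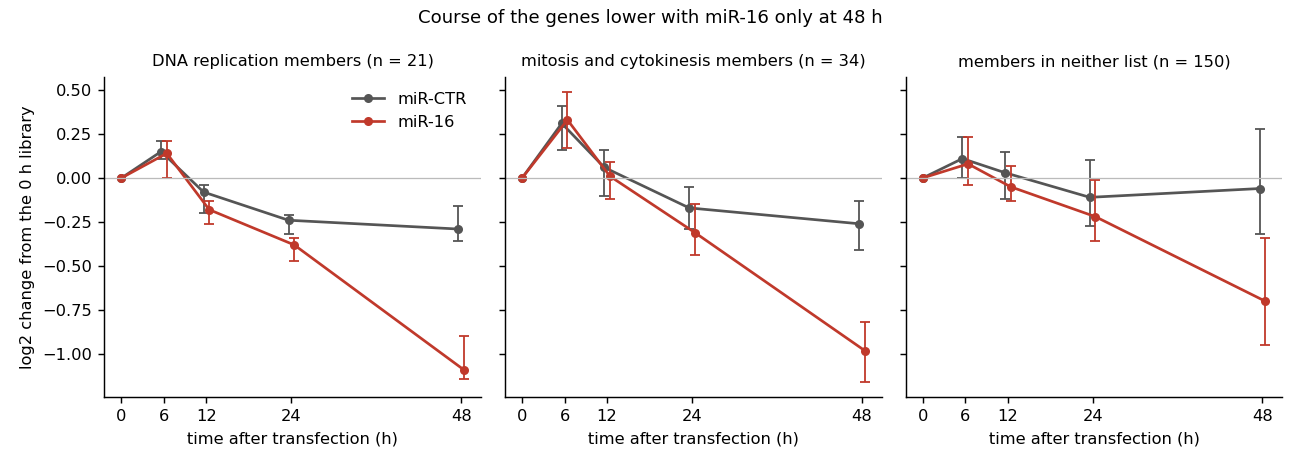
Median log2 change from the 0 h library (vertical axis) against hours after transfection, for the members on the DNA replication list, on the mitosis and cytokinesis list and on neither, grey for miR-CTR and red for miR-16, where bars span the middle 50% of genes and not replicates. All 3 sets peak at 6 h and run close together to 24 h, and at 48 h the miR-16 medians reach −1.09, −0.98 and −0.7.

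A lower value than in the control did not always mean a loss from the start. With miR-16, 153 of the 205 members (74.6%) were at least 0.5 below 0 h at 48 h, beside 16.5% of all 11137 genes. In 73 of these 153 members, miR-CTR was also at least 0.25 below 0 h, and in 79 it was less than 0.25 away from it. A set of 31 members behaved otherwise, with miR-16 no more than 0.25 below its 0 h value and miR-CTR at least 0.25 above. None of these 31 was on the replication or mitosis list, but the lists are not complete. CENPC of the centromere set was among the 31, at −0.24 from 0 h with miR-16 and 0.31 with miR-CTR. PRDM7 and SGSM3 led them. SGSM3, a RAB GTPase regulator, was at 9.99 at 0 h, at 10.07, 10.2, 10.66 and 11.17 with miR-CTR and at 10.03, 10.13, 10.55 and 10.51 with miR-16. Both mimics thus went up alike to 24 h, and only the control was higher still at 48 h. PDK1, the kinase that restrains pyruvate dehydrogenase, went from 9.04 to 9.95 with miR-CTR and 9.38 with miR-16, PFKFB4 from 7.31 to 8.23 and 7.72, EPOR (the erythropoietin receptor) from 8.93 to 9.86 and 9.35, and AXIN2 (a feedback inhibitor of WNT signalling) from 7.43 to 8.01 and 7.28. In the group as a whole, 12 members had a miR-16 value at or above 0 h at 48 h, beside 5180 of all 11137 genes. With miR-CTR, 42 of the 205 were at least 0.25 above 0 h at 48 h, beside 2909 of all 11137 genes. The classes of 73, 79 and 31 members were not counted over all genes, so they describe the members only.

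**Figure D4:**
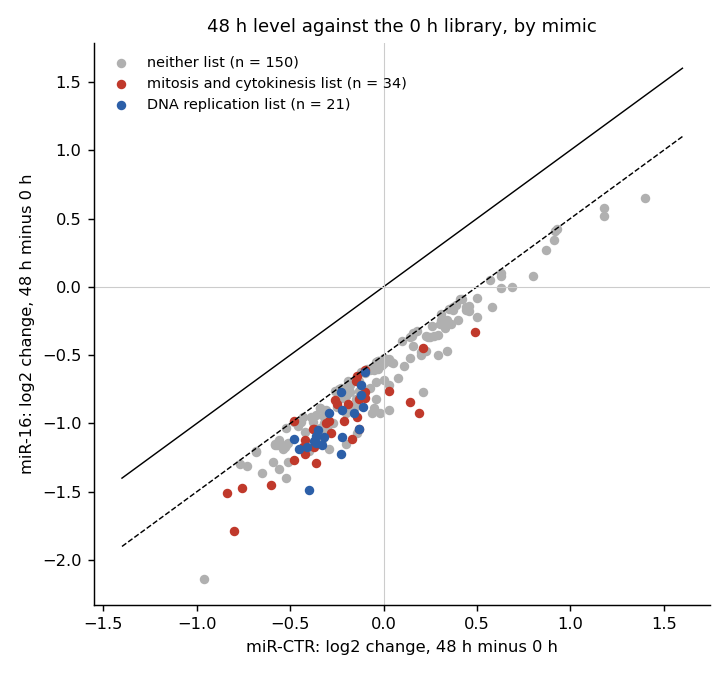
Log2 change from 0 to 48 h with miR-CTR (horizontal axis) and with miR-16 (vertical axis) for the 205 genes, with the line of equal change (solid) and the threshold 0.5 below it (dashed), under which all points lie by the rule. The replication (blue, n = 21) and mitotic (red, n = 34) members sit at the lower left and centre, with miR-16 below 0 h, while the upper right holds genes of neither list such as PRDM7, at 1.4 with miR-CTR and 0.65 with miR-16.

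The reference decides which genes the rule keeps. When every miR-16 library was compared with the 0 h library instead, the rule kept 225 genes, of which 19 were among the 205, and 3.11% of them belonged to the replication or mitosis list. Although 153 members met the 48 h threshold against 0 h, those 19 alone had also stayed within 0.25 of it at 6, 12 and 24 h with miR-16. The timing of the remaining members is thus relative to the control mimic and not to the starting cells.

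Matches to the miR-16 seed were scarcer in these genes than in the table at large. In the longest annotated 3′UTR, 3 kinds of match were counted: TGCTGCT, which pairs with bases 2 to 8 of miR-16 (7mer-m8), the same letters followed by A (TGCTGCTA, 8mer), and GCTGCTA (7mer-A1). Of 193 members with a 3′UTR, 36 (18.7%) had one, beside 3076 of 10189 genes (30.2%) at 7 or more at 0 h. Genes at or below −0.5 at both 24 and 48 h had one in 207 of 278 cases (74.5%), and those at or below −0.5 at 12, 24 and 48 h in 59 of 68 (86.8%). Genes within 0.25 at all 4 times had 26.5%. The 3′UTRs of the members were shorter, with a median of 886 bases beside 1477, and per kilobase the members had 0.199 matches beside 0.217 for all genes and 0.524 for genes lower at both 24 and 48 h. Within each of 4 equal classes of 3′UTR length the members' share was below that of all genes: 5.48% beside 9.05% up to 639 bases, 16.7% beside 22% up to 1477, 29.3% beside 33.5% up to 2882 and 52.6% beside 56.3% above. Per base the members thus stood close to all genes, and the part of 3′UTR length in the lower share was not tested further.

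Only 6 members (3.11%) had an 8mer, beside 5.15% of all genes: PDK1, GSTCD, ITPRIPL1, PFKFB4, RABL3 and VPS33B, with 48 h differences from −0.57 to −0.51. The members with several matches and the lowest differences were MXD3 (a MAX partner that opposes MYC, 4 overlapping 7mer-m8 matches in a repeat, −0.86), AXIN2 (−0.73), MCM8 (a helicase of recombination repair, −0.73), RACGAP1 (a protein of the central spindle, −0.7), MRPS25 (a mitochondrial ribosomal protein, −0.64) and FN3KRP (−0.6). Among replication members 5 of 21 (23.8%) had a match, beside 15.8% of replication genes lower at 48 h and already below −0.25 at 24 h and 9.09% of those not lower at 48 h. Among mitotic members it was 5 of 34 (14.7%), beside 20% and 9.52%. Of the 31 members whose control increased, 10 of 28 with a 3′UTR had a match (35.7%), close to the 30.2% of all genes, and their median 3′UTR was 1413 bases long.

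Promoter motifs split the members by function. RefSeq promoters, 300 bases from 250 before to 50 after a start, were matched for 162 members and for 8701 genes at 7 or more, and a gene counted when any of its starts held the motif on either strand. TTTGAA (CHR) was found in 50 of 162 members (30.9%), beside 13.6% of the 8701 genes and 15.2% of all 35116 windows. It was in 19 of 28 mitotic members (67.9%), in 0 of 18 replication members and in 26.7% of the 116 others. An E2F motif (TTTCCCGC, TTTGGCGC or TTTCGCGC) was found in 27 members (16.7%), beside 6.02% of the 8701 genes and 2.74% of windows. It ran the other way, in 10 of 18 replication members (55.6%), 3 of 28 mitotic members (10.7%) and 12.1% of the others. Only 3 members had both, and in KIF15 the E2F letters GCGCCAAA end where the CHR letters TTCAAA begin. CCAAT, the NF-Y box, was in 66.0% of members and 44.0% of genes (34.6% of windows).

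The ETS, YY1, CRE, E-box and GC box motifs were no more frequent in members than in all genes. The ETS motif CCGGAAG was in 21.6% of members and 24.3% of genes (10.3% of windows), the YY1 motif AAGATGGC in 4.32% and 7.25% (2.89%), the CRE TGACGTCA in 3.09% and 4.11% (1.85%), the E-box CACGTG in 11.1% and 13.5% (7.26%) and the GC box GGGCGG in 75.3% and 79.0% (45.0%). The CHR variant TTCGAA was in 5.56% and 2.47% (1.45%). Genes lower at both 24 and 48 h had CHR in 18.9% and E2F in 5.88%, and genes higher only at 48 h had them in 3.9% each. Within the mitosis list CHR was frequent outside the group as well, since 29 of 38 genes (76.3%) already below −0.25 at 24 h had CHR, as did 7 of 16 genes that were not lower at 48 h (43.8%). Within the replication list, E2F was found in 55.6% of members, 47.1% of genes below −0.25 at 24 h and 40% of genes not lower at 48 h. A match is a description of these letters in this window.

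**Figure D5:**
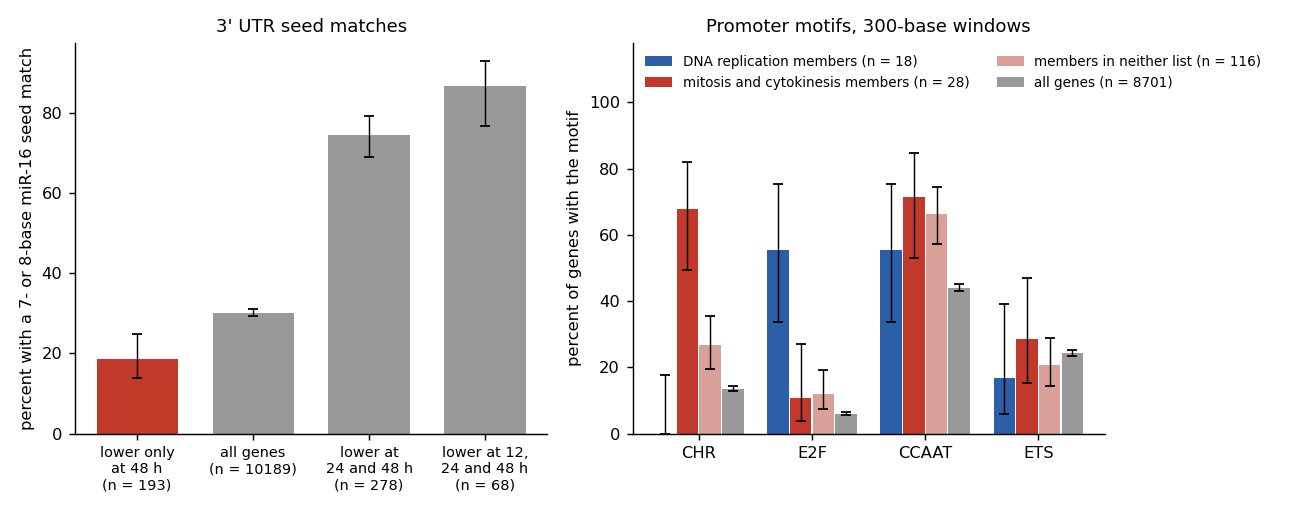
Left, percent of genes with a 7- or 8-base miR-16 seed match in the 3′UTR, 18.7% for the genes lower only at 48 h and 86.8% for those lower at 12, 24 and 48 h. Right, percent of genes with each promoter motif among replication, mitotic and other members and all genes, where CHR is in 67.9% of mitotic and none of the 18 replication members, and bars on both sides are 95% Wilson intervals that describe the size of the list only.

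The genes most like the members in course, over the 9 libraries, were mostly cell cycle genes outside the band at 24 h. The likeness was the Pearson correlation with the median member, over genes outside the group. It was 0.993 for RRM1, 0.99 for C17orf53 and PKMYT1 (the kinase that inhibits CDK1 at the membrane), 0.987 for BUB1, 0.986 for FEN1 (the flap endonuclease of Okazaki fragments), 0.985 for TCF19 and 0.984 for POLQ, ZNF732, NCAPH and CKAP2L. All 10 lay between −0.41 and −0.26 at 24 h and between −1.11 and −0.78 at 48 h. All 10 were thus outside the group through the 24 h band.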

How the data were processed

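RNA sequencing libraries of MP41 cells, 1 per condition, were used as 1 deposited table of 14839 genes and 9 libraries. The authors deposited normalised log2 values with 2 decimals. Turned back to the linear scale, low values (up to 5) were whole multiples of 1 step per library, within the rounding of the second decimal plus 0.02 of a read, so the deposited unit is log2(reads / size factor + 1). The submitters' processing notes name FastQC, STAR 2.4.0a, featureCounts of Subread 1.5.0-p3 and hg38/GRCh38. The columns carry time codes (T0, T1, T2, T4, T5) and not hours, and they were paired with 0, 6, 12, 24 and 48 h, a pairing the table itself does not state. No further normalization was applied.

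The log2 difference was miR-16 minus miR-CTR of the same time. Counting standard errors came from the recovered reads and cover counting error only. The members, gene lists and thresholds were chosen with earlier results of these data known. Genes named were the 12 with the lowest 48 h difference, the 10 highest at 0 h, up to 5 per list with 3 or more members, up to 6 with an 8mer or several seed matches, 3 on each side of the threshold and 10 by likeness. Complexes and other named genes were chosen after the values were seen.

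Symbols were matched to GENCODE 29 (12976 directly, 542 through an older symbol, 1321 not), which gave 201 members a gene and 193 a 3′UTR. Promoters came from RefSeq, with 1.41 starts per matched member and 1.48 per matched gene at 7 or more. The selection code was run on simulated counts that held counting error only, which says nothing about the spread between cultures. Python 3.11.15, pandas 2.3.3 and numpy 2.4.6 were used. Alternatives were other thresholds, bands, filters, normalizations, references, site definitions and strands. No p-value was computed, since no condition was repeated.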

Additional observations from a re-analysis of the deposited data

How the results depend on the processing

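The number of 48 h-only genes was 205, and it moved most with the band and the threshold: 68 genes with a band of 0.15, 363 with 0.35 and 130 with a 1.5-fold threshold. The other alternatives gave between 172 and 241 genes. Of the 205, 177 remained under quantile normalization and 197 after centring each library on the median gene, but only 19 with the 0 h library as the reference. The share of members on the replication or mitosis list was 26.8%, rose to 36.9% with the 1.5-fold threshold and was 3.11% with the 0 h reference, and it lay between 22.8% and 32% otherwise. The seed match share was 11.5 percentage points below that of all genes (a difference of −11.5), and the gap was −2.04 with 8mers alone, −3.29 with the band of 0.35 and −4.94 with the 0 h reference. It was negative under every alternative. The surplus of CHR over all genes was 17.3 points on both strands and 9.79 on the given strand, and that of E2F 10.7 and 3.95. Counting every start window, an alternative added after seeing the data, gave 14.2 and 8.32. A gap in points depends on the size of both shares, which were smaller with 8mers alone (3.11% of members beside 5.15% of all genes). They were smaller on the given strand too, where CHR was in 17.9% of members beside 8.11% of genes, and E2F in 7.41% beside 3.46%. Other causes of these shifts were not tested, except that a wider band admits more genes and a stricter threshold fewer by construction. Of 57 alternative values, 0 reversed. Counts of genes and the list share could by their definition only stay or move, not reverse. The medians of the course were taken over the same 205 genes under each normalization. The 0 h reference was counted as unmoved in the number of genes, although only 19 of the 205 remained. A count was taken as moved beyond 1.5 times and other values beyond their counting error or 95% interval, by which 16 moved. No paired analysis was possible because each condition has 1 library and no result comes from a test.

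With 1 library per condition, the spread between cultures is unknown, and a single library decides each value at 48 h. Counting errors reached 0.226 in the least expressed members.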
